A study of Mus musculus with 16 samples.

Results

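The smooth muscle contractile genes are 10 of the 55487 genes counted in bulk brain RNA of 16 mice, and they are Myh11, Acta2, Tagln, Cnn1, Myl9, Mylk, Lmod1, Des, Smtn and Tpm2. They were selected on the difference between evacetrapib- and vehicle-treated mice, in which Myh11, Acta2 and Tagln stand out, and on their place in the contractile apparatus of vascular smooth muscle cells (VSMCs). Their values in that comparison are therefore given as a description, and tests are kept for the genotypes, which the selection did not use.

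All 16 mice were heterozygous for a human CETP transgene (CETPtg), were described by the study as female, on the C57BL/6J background, and were fed a diet with 1% cholesterol. In 8 of them, APPtg/CETPtg, a human APP transgene with the Swedish and Indiana mutations was also present, which the Thy1 promoter drives in neurons. The 4 evacetrapib-treated mice of each genotype received the CETP inhibitor at 30 mg per kg per day for 11 weeks, and the other 4 of each genotype received its vehicle. CETPtg mice without a mutant APP transgene are the controls for the genotype, and mice without CETP were not analysed here. Brain tissue came from mice that had not been perfused, the labels give no age, and each library is 1 mouse.

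A VSMC contracts when calcium activates myosin light chain kinase (encoded by Mylk), which phosphorylates the regulatory light chain (Myl9) of smooth muscle myosin (heavy chain Myh11). Myosin then pulls on filaments of smooth muscle actin (Acta2), which tropomyosin, calponin and transgelin decorate and which desmin filaments link to the rest of the cell. In the brain, this apparatus sets the diameter of arteries and arterioles, and its genes are the usual markers of mature VSMCs.

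Many genes of this apparatus share the CArG box, the site of serum response factor, in their promoters. Promoters were taken from RefSeq (GRCm38.p6, from 250 bases before to 50 bases after the start site) and matched 8 of the 10 genes, all but Myh11 and Tagln. Both of the promoters shown here, Acta2 and Myl9, held a pair of CArG boxes or CArG-like sites, meaning a CArG box with a single C or G inside. The sites are in capitals, both strands were searched, and each sequence runs 5′ to 3′ on the strand of its gene, Acta2 on the minus strand at chr19:34255324-34255623 and Myl9 on the plus strand at chr2:156775214-156775513.
Acta2 promoter: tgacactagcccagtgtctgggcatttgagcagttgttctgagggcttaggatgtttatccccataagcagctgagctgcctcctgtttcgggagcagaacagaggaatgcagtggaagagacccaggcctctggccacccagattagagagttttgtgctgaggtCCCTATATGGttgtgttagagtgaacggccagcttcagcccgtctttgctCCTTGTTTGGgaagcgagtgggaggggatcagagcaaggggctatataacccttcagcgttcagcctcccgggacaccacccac
Myl9 promoter: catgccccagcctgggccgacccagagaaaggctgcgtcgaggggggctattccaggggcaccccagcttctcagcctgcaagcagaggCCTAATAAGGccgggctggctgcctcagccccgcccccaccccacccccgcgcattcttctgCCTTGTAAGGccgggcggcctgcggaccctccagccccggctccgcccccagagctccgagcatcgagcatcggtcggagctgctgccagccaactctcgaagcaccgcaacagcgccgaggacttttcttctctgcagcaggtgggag
The Acta2 sites begin 84 and 34 bases before the start site and are both CArG-like. The Myl9 promoter holds an exact CArG box, CCTAATAAGG, whose first base lies 161 bases before the start site, and a CArG-like site at 99 bases. An exact box was present in 1.63% of the 32851 promoters of the same length, and a box or CArG-like site in 9.98%. A pair or more of them was present in 0.822% of those promoters. The windows of Cnn1, Mylk, Lmod1, Des, Smtn and Tpm2 held neither kind of site. A match is a run of letters, and binding was not measured.

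Reads counted on genes summed to between 21391335 and 55453789 per mouse, with medians of 36043314.5 (CETPtg) and 23689163 (APPtg/CETPtg). The highest total was that of vehicle-treated APPtg/CETPtg replicate S8. Counts were scaled to a common library size with TMM (CPM), and 18609 genes that reached 10 counts in 4 or more mice entered the tests, all 10 contractile genes among them. The libraries of the 2 genotypes sit in different columns of the index plate and those of the 2 treatments in different rows, so plate column and genotype, or plate row and treatment, cannot be told apart. Neuronal markers dominated the tissue, with 10740 to 12480 summed CPM over 10 genes, against 65.8 to 90.6 summed CPM for the contractile genes.

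The contractile genes were lowly expressed, and their order was read per length, in CPM per kb of exon. Myl9 was the highest at 10.97 ± 1.49 CPM per kb (SD, n = 16), followed by Acta2 at 3.82 ± 0.986 and Tagln at 3.12 ± 0.669. Tpm2 had 3.08 ± 0.348 CPM per kb and could not be placed apart from Tagln, which was above it in 7 of 16 mice. Smtn followed with 1.97 ± 0.170, Mylk with 1.73 ± 0.281 and Myh11 with 1.24 ± 0.279 CPM per kb. Des (0.580 ± 0.122), Lmod1 (0.288 ± 0.0859) and Cnn1 (0.144 ± 0.0549 CPM per kb) were the lowest. Every other neighbour in this order was above the next gene in at least 14 of the 16 mice. Cnn1 rested on 4 to 36 reads per mouse and Lmod1 on 8 to 56, which limits their precision.

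**Figure D1:**
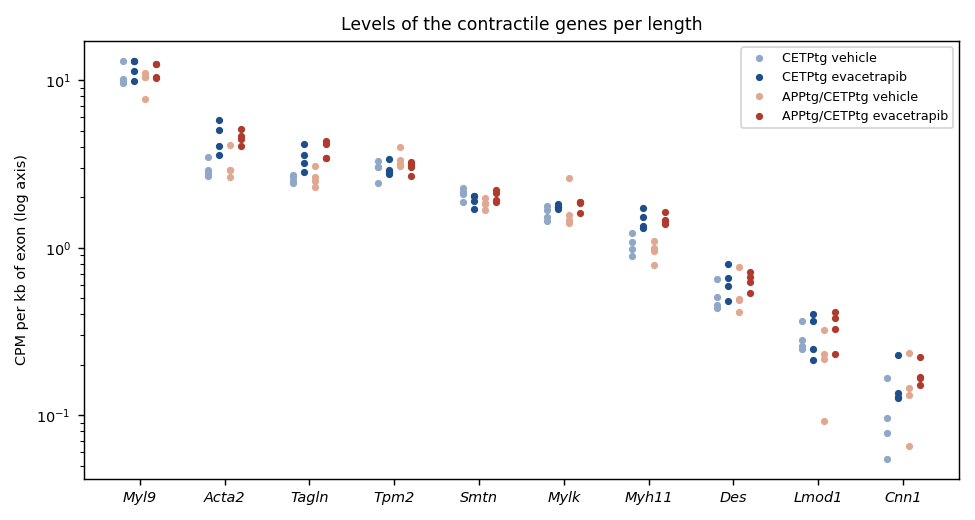
Level of each contractile gene in CPM per kb of exon on a log axis, 1 point a mouse, coloured by group. Myl9 lies highest, between 7.76 and 13.1 CPM per kb, and Cnn1 lowest, between 0.0549 and 0.236, and the ranges of Tagln and Tpm2 overlap.

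Between evacetrapib- and vehicle-treated mice, the myosin heavy chain, actin and transgelin were the members with the largest separation, and the light chain, its kinase, smoothelin and tropomyosin differed little. The median log2 fold change of the 10 genes was 0.29 over all mice, beside -0.0015 over all 18609 genes, with 8 genes higher and 2 lower. In edgeR 1 of the 10, Myh11, passed an adjusted p up to 0.05 with a difference of 5% or more, as did 0.0107% of all genes tested. In the Wald test of DESeq2, the tool of the study, 3 of the 10 passed (Myh11, Acta2 and Tagln), as did 0.315% of all genes with an adjusted p. The number in edgeR was 3 without a filter on low counts and 2 with a replicate block. It was 3 without the vehicle-treated replicates S4 and S8, and 0 with a term for the plate column. S4 and S8 were high among the vehicle-treated mice, so leaving them out raises the difference by construction. Plate columns 8 and 11 held only evacetrapib-treated mice, so with the column term the treatment estimate rests on evacetrapib-treated C, D, G and H against the vehicle-treated mice. With each mouse left out in turn, Myh11 passed in 7 of 16 fits, while its log2 fold change stayed between 0.52 and 0.60, and it was 0.55 with the plate column. In bulk tissue, more VSMCs and more contractile RNA per VSMC cannot be told apart. For the alternative edgeR fits, the share of all genes that passed is not given here. The genes were also chosen with this comparison known, so nothing is read from these counts.

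Myh11 (ENSMUSG00000018830, chromosome 16 of GRCm38, 14194535 to 14291372, minus strand) encodes the smooth muscle myosin heavy chain. It had 8.20, 6.75, 7.49 and 9.27 CPM in vehicle-treated CETPtg replicates S1 to S4 and 9.95, 13.04, 10.3 and 11.6 CPM in evacetrapib-treated CETPtg replicates A to D. The APPtg/CETPtg mice had 7.53, 5.99, 7.28 and 8.34 CPM with vehicle (S5 to S8) and 11.1, 10.9, 10.5 and 12.4 CPM with evacetrapib (E to H). The 8 evacetrapib-treated mice all lay above the 8 vehicle-treated mice, a pattern that Myh11 alone of the 10 showed and that 0.0376% of all genes share. The log2 fold change was 0.56 (standard error 0.080), with 0.50 for CETPtg and 0.61 for APPtg/CETPtg mice taken alone.

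Acta2 (ENSMUSG00000035783, chromosome 19, 34241090 to 34255590, minus strand), the actin of the smooth muscle thin filament, varied more between mice. It had 5.91, 6.43, 6.10 and 7.61 CPM in the vehicle-treated and 8.84, 11.0, 7.86 and 12.7 CPM in the evacetrapib-treated CETPtg mice. The APPtg/CETPtg mice had 6.35, 5.81, 6.40 and 9.05 CPM with vehicle and 9.78, 10.2, 8.94 and 11.3 CPM with evacetrapib. The treatment groups did not overlap in CETPtg mice, while in APPtg/CETPtg mice vehicle-treated replicate S8 lay above evacetrapib-treated replicate G. The log2 fold change was 0.58 over all mice (standard error 0.105), 0.63 in CETPtg and 0.52 in APPtg/CETPtg mice.

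Tagln (ENSMUSG00000032085, chromosome 9, 45929619 to 45936058, minus strand) encodes transgelin, an actin-binding protein of the same filament. It had 4.95, 5.27, 4.81 and 5.39 CPM in the vehicle-treated and 5.62, 8.24, 6.37 and 7.07 CPM in the evacetrapib-treated CETPtg mice. The APPtg/CETPtg mice had 4.95, 5.27, 4.58 and 6.09 CPM with vehicle and 8.27, 6.78, 6.87 and 8.68 CPM with evacetrapib. The groups did not overlap within either genotype, although S8 was above evacetrapib-treated CETPtg replicate A. The log2 fold change was 0.48 (standard error 0.088), with 0.42 in CETPtg and 0.54 in APPtg/CETPtg mice. Tagln lies across from Pcsk7 and Gm48529 on the other strand, and the strand setting of the counting is not given in the sources used here, so reads of these genes may be mixed.

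Evacetrapib-treated groups lay wholly above vehicle-treated groups for 3 of the 10 genes in CETPtg mice (Myh11, Acta2 and Tagln), where 2.1% of all genes did. In APPtg/CETPtg mice this held for 2 of the 10 (Myh11 and Tagln) and for 1.97% of all genes, and in both genotypes at once for the same 2 and for 0.0699%. Within a single genotype, 0 of the 10 passed the thresholds in CETPtg mice, as did 0.0% of all genes tested (edgeR, with 1079 genes at an unadjusted p under 0.05). In APPtg/CETPtg mice 0 of the 10 passed in edgeR, where 0.043% of all genes did, and 2 in DESeq2, where 0.51% of all genes with an adjusted p did. These counts also come from the comparison that chose the genes.

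Calponin, leiomodin and desmin had positive log2 fold changes with wide errors. Cnn1 (ENSMUSG00000001349, chromosome 9, 22099216 to 22109630, plus strand), which encodes calponin, an inhibitor of the myosin ATPase, had 0.150 to 0.458 CPM in vehicle-treated and 0.345 to 0.630 CPM in evacetrapib-treated CETPtg mice. It had 0.180 to 0.647 CPM in vehicle-treated and 0.415 to 0.609 CPM in evacetrapib-treated APPtg/CETPtg mice, where the highest value was that of S8. The groups overlapped in both genotypes, and the log2 fold change was 0.40 over all mice (standard error 0.258), 0.65 in CETPtg and 0.17 in APPtg/CETPtg mice. With 1 mouse left out, the value over all mice reached 0.63 (without S8), and that in APPtg/CETPtg mice ran from -0.03 (without S6) to 0.60 (without S8).

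Lmod1 (ENSMUSG00000048096, chromosome 1, 135324807 to 135368065, plus strand) encodes leiomodin, which nucleates actin filaments. It had 1.44, 1.02, 1.10 and 0.987 CPM in vehicle-treated and 0.838, 1.44, 0.983 and 1.59 CPM in evacetrapib-treated CETPtg mice. The APPtg/CETPtg mice had 0.363, 0.856, 1.27 and 0.916 CPM with vehicle and 1.62, 1.502, 0.922 and 1.30 CPM with evacetrapib. The groups overlapped in both genotypes, and replicate S5, at 8 reads, was the lowest of all mice. The log2 fold change was 0.33 (standard error 0.202), with 0.08 in CETPtg and 0.62 in APPtg/CETPtg mice. With 1 mouse left out, the value in CETPtg mice ran from -0.08 (without D) to 0.23 (without A).

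Des (ENSMUSG00000026208, chromosome 1, 75360329 to 75368579, plus strand) encodes desmin, the intermediate filament protein of muscle, and has the antisense gene Gm15179 within it. It had 1.71, 1.91, 1.63 and 2.43 CPM in vehicle-treated and 2.47, 2.998, 1.81 and 2.21 CPM in evacetrapib-treated CETPtg mice. The APPtg/CETPtg mice had 1.54, 1.85, 1.82 and 2.89 CPM with vehicle and 2.001, 2.68, 2.35 and 2.51 CPM with evacetrapib. The groups overlapped in both genotypes, with vehicle-treated S4 above evacetrapib-treated C and D and S8 above all 4 evacetrapib-treated APPtg/CETPtg mice. The log2 fold change was 0.25 (standard error 0.139).

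The light chain, its kinase, smoothelin and tropomyosin are also used outside smooth muscle. Myl9 (ENSMUSG00000067818, chromosome 2, 156775420 to 156781658, plus strand) differed by 0.17 on the log2 scale (standard error 0.083). Its means were 12.4 ± 1.79 CPM with vehicle and 13.7 ± 1.73 CPM with evacetrapib in CETPtg mice, and 11.6 ± 1.73 and 13.3 ± 1.40 CPM in APPtg/CETPtg mice (SD, n = 4 each). Mylk (ENSMUSG00000022836, chromosome 16, 34745210 to 35002420, plus strand, with 3 antisense genes within it) differed by 0.09 (standard error 0.095). All 4 groups of Mylk had means between 18.1 and 20.3 CPM, and replicate S6 stood apart at 29.3 CPM in a group whose other mice had 15.9 to 17.7 CPM.

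Smtn (ENSMUSG00000020439, chromosome 11, 3517523 to 3540612, minus strand) encodes smoothelin, a protein of the contractile cytoskeleton, and overlaps Gm11946 and Gm11947 on the other strand. It was lower with evacetrapib in CETPtg mice, at 8.41 ± 0.660 against 9.21 ± 0.741 CPM, and higher in APPtg/CETPtg mice, at 8.92 ± 0.666 against 8.06 ± 0.549 CPM (SD, n = 4 each). Its log2 fold change over all mice was 0.00 (standard error 0.069). Tpm2 (ENSMUSG00000028464, chromosome 4, 43514711 to 43523765, minus strand), which encodes the tropomyosin that lies along the actin filament, differed by -0.07 on the log2 scale (standard error 0.077). Its CPM lay between 7.10 and 11.54 in the 16 mice, and the groups overlapped within both genotypes.

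**Figure D2:**
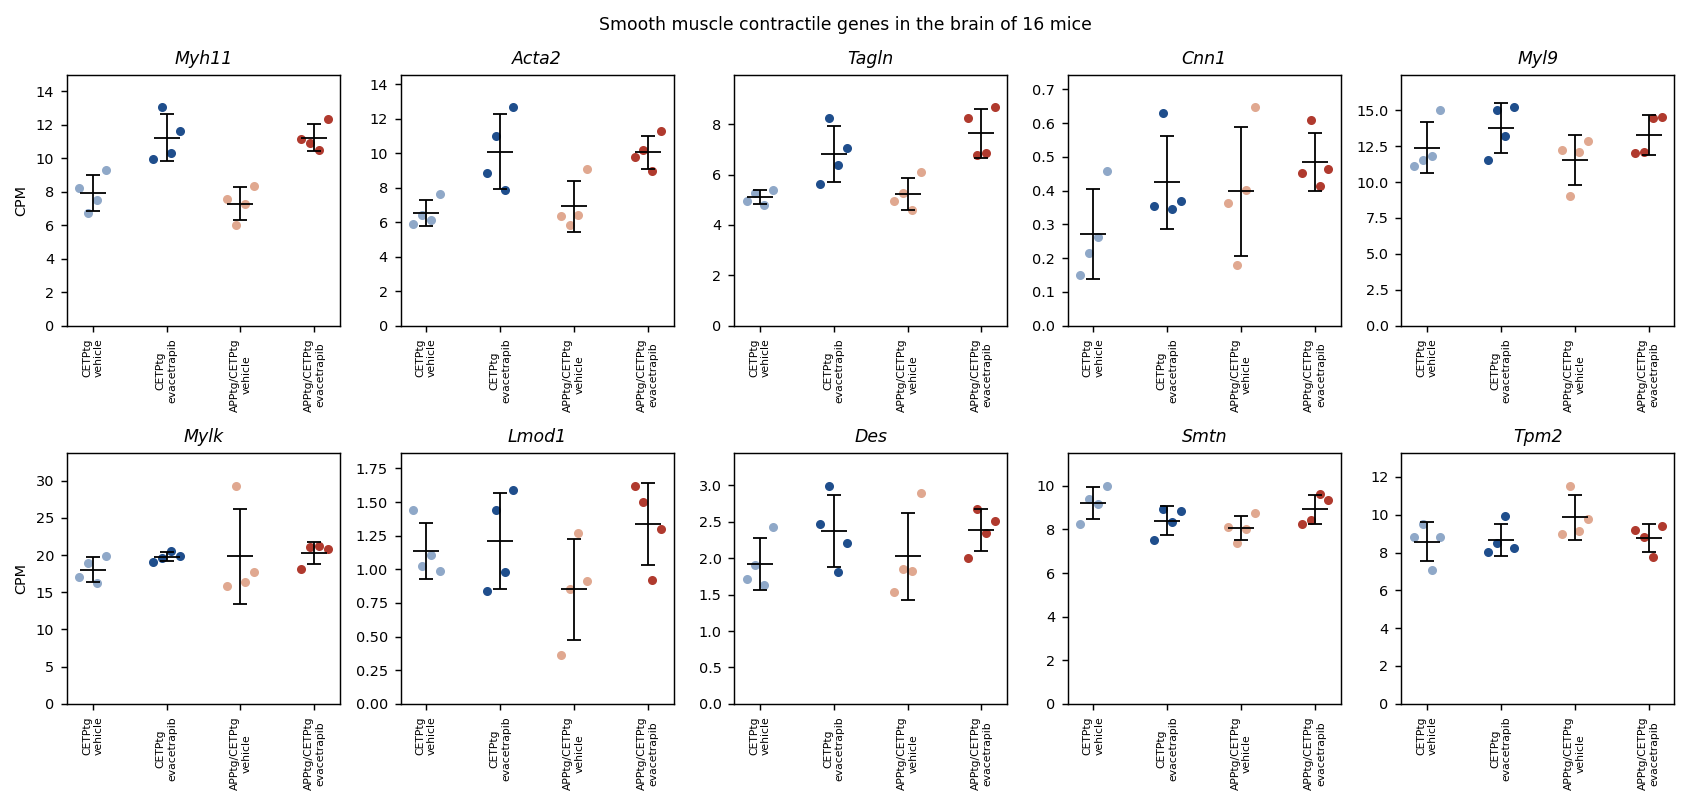
CPM of the 10 contractile genes in each of the 4 groups, 1 point a mouse, with the mean and the SD (n = 4) as bar and whiskers, and each axis starting at 0. The evacetrapib-treated mice of Myh11 lie between 9.95 and 13.04 CPM and the vehicle-treated mice between 5.99 and 9.27, while the treatment groups of Tpm2 and Mylk overlap.

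Whether the mutant APP transgene goes with a different contractile program was tested over all mice with a treatment term. Of the 10 genes, 0 passed between APPtg/CETPtg and CETPtg mice, and 0 had an unadjusted p under 0.05 (quasi-likelihood test in edgeR, Benjamini-Hochberg adjustment over 18609 genes). Over all genes tested, 17.7% passed, 1740 higher and 1559 lower in APPtg/CETPtg mice, and 30.5% had an unadjusted p under 0.05. In the Wald test of DESeq2, where 20.8% of all genes with an adjusted p passed, and in limma-voom, 0 of the 10 passed as well. A p that misses the threshold does not show equal levels, so the intervals of the folds are given.

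The narrowest intervals were those of the better expressed genes. The ratio of APPtg/CETPtg to CETPtg mice was 0.965 for Myh11 (95% interval 0.860 to 1.08), 0.965 for Smtn (0.874 to 1.07) and 0.953 for Myl9 (0.844 to 1.07). It was 1.06 for Mylk (0.922 to 1.21), 1.08 for Tpm2 (0.968 to 1.21), 1.08 for Tagln (0.949 to 1.22) and 1.04 for Acta2 (0.890 to 1.21). The intervals of these 7 genes together span 0.844 to 1.22. The intervals were wider for Des (ratio 1.049, 0.858 to 1.28), Lmod1 (0.933, 0.696 to 1.25) and Cnn1 (1.36, 0.936 to 1.97). For these genes, larger differences within the intervals are not excluded. The adjusted p of the 10 genes lay between 0.263 for Cnn1 and 0.794 for Acta2 in edgeR's test.

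The same held within each treatment. Under vehicle 0 of the 10 genes passed, where 10.4% of all genes did, and the log2 differences lay between -0.38 (Lmod1) and 0.70 (Cnn1). The lowest adjusted p was 0.203, that of Smtn, which was lower in APPtg/CETPtg mice by a log2 difference of -0.18 (standard error 0.089, edgeR). Under evacetrapib 0 of the 10 passed, where 2.99% of all genes did, and the log2 differences lay between -0.05 (Myl9) and 0.21 (Cnn1). In CPM, the genotypes overlapped for all 10 genes under both treatments. Groups that did not overlap were found for 17.0% of all genes under vehicle and 10.8% under evacetrapib. With only 10 genes, 0 lies near these shares, and nothing about the members is read from it. Plate column and genotype cannot be told apart here, and with a term for the plate row 0 of the 10 passed.

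Whether evacetrapib-treated and vehicle-treated mice differ by another amount in APPtg/CETPtg than in CETPtg mice was tested as the interaction of the 2 factors. For 0 of the 10 genes and for 0.0% of all genes did this difference pass (edgeR), with 1 of the 10 and 1271 of 18609 genes at an unadjusted p under 0.05. DESeq2 and limma-voom likewise passed 0 of the 10. The single gene was Smtn, whose difference was 0.27 on the log2 scale (standard error 0.126, 95% interval 0.0053 to 0.53, adjusted p = 0.724 in edgeR's test). For Myh11 the difference was 0.11 (95% interval -0.23 to 0.45), for Tagln 0.12 (-0.25 to 0.50) and for Acta2 -0.11 (-0.56 to 0.33). The interval of Lmod1 ran from -0.28 to 1.38 and that of Cnn1 from -1.57 to 0.59, so large differences within them are not excluded.

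**Figure D3:**
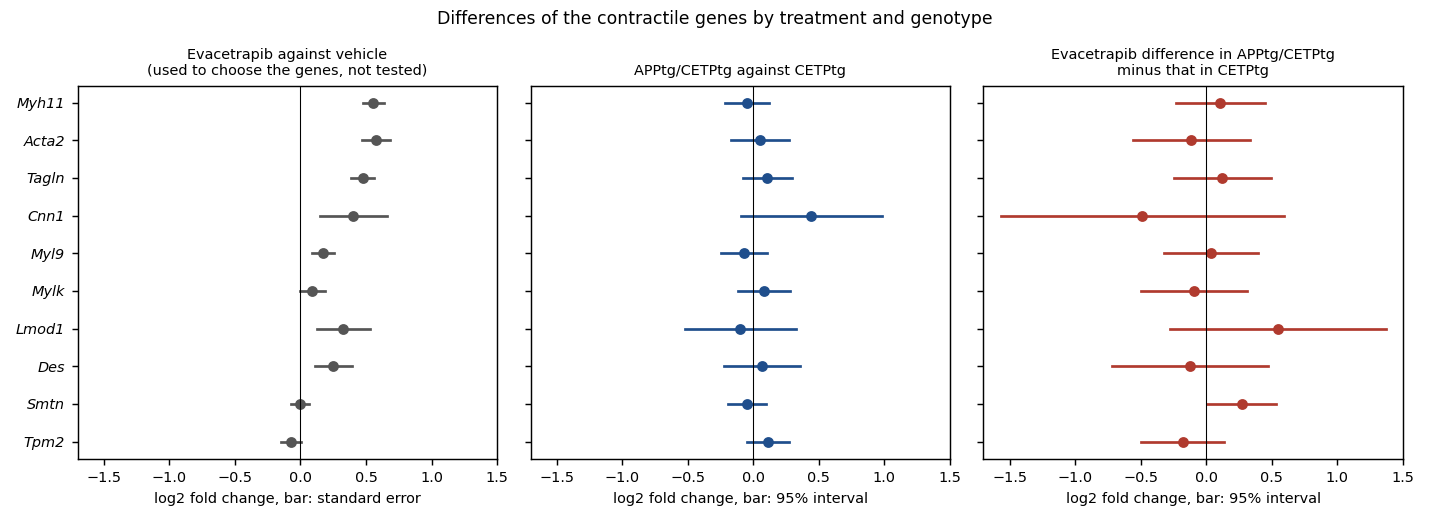
Log2 fold changes of the 10 contractile genes for evacetrapib against vehicle over all mice (left, bars are the standard error), APPtg/CETPtg against CETPtg (middle, bars are 95% intervals) and the difference between the genotypes' evacetrapib differences (right, 95% intervals). The left panel reaches 0.58 at Acta2, all 10 intervals of the middle panel include 0, and on the right the interval of Smtn starts at 0.0053.

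From mouse to mouse, most of the contractile genes deviated together. Each mouse was expressed as its difference from the mean of its own group in log2 CPM, which removes both treatment and genotype, and members were correlated over the 16 mice as a description with no p. The values of a mouse come from a single library, with its own total count and plate position. Of 45 pairs, 33 had a Pearson r above 0, with a median of 0.35. The closest pair was Myl9 and Smtn (r = 0.90, Spearman's rho = 0.93, and r = 0.90 without S4 and S6, the mice farthest from the median of Myl9). Myh11 and Acta2 had r = 0.73 (rho = 0.75, and 0.67 without S4 and S6), and Acta2 and Tagln r = 0.66 (rho = 0.66, and 0.62 without D and S8).

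Mylk and Tpm2 ran apart from the rest, with mean r of -0.05 and 0.01 with the other members, against 0.46 for Acta2, 0.42 for Tagln, 0.41 for Des and 0.39 for Myh11. Lmod1 also varied on its own, with a mean r of 0.14. The lowest pair was Myh11 and Mylk (r = -0.40, rho = -0.26, and -0.26 without S4 and S6). Without both S4 and S8, whose vehicle-treated brains were the highest of their groups in most members, 32 of the 45 pairs were above 0, with a median r of 0.26 over 14 mice.

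These shared deviations followed single mice. Replicate S4 was the highest of the 4 vehicle-treated CETPtg mice in 8 of the 10 genes, and S8 the highest of the 4 vehicle-treated APPtg/CETPtg mice in 7. Replicate A was the lowest of the evacetrapib-treated CETPtg mice in 7 genes. Averaged over the 10 genes, S8 lay 0.25 and S4 and evacetrapib-treated CETPtg replicate B 0.20 above the mean of their groups on the log2 scale. S5 and A lay at -0.17 each. S4 and S8 were picked after these values were seen, and leaving out high vehicle-treated mice raises the treatment difference by construction. With S4 and S8 left out and B kept, the log2 fold change between evacetrapib- and vehicle-treated mice was 0.64 for Myh11, 0.70 for Acta2 and 0.53 for Tagln.

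The mice that the table of counts numbers 4 in their group, D, H, S4 and S8, were above their group means in all 4 groups for 5 of the 10 genes (Myh11, Acta2, Tagln, Myl9 and Smtn), which 5.87% of all genes share. Averaged over the members, they lay between 0.085 and 0.25 above their groups, and the mice numbered 1 (A, E, S1 and S5) lay between -0.17 and -0.03. In these libraries the number goes with the row of the index plate within each treatment, S4 and S8 in row F and D and H in row B. This pattern was noticed in the same data, and the part of plate position in it was not tested.

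**Figure D4:**
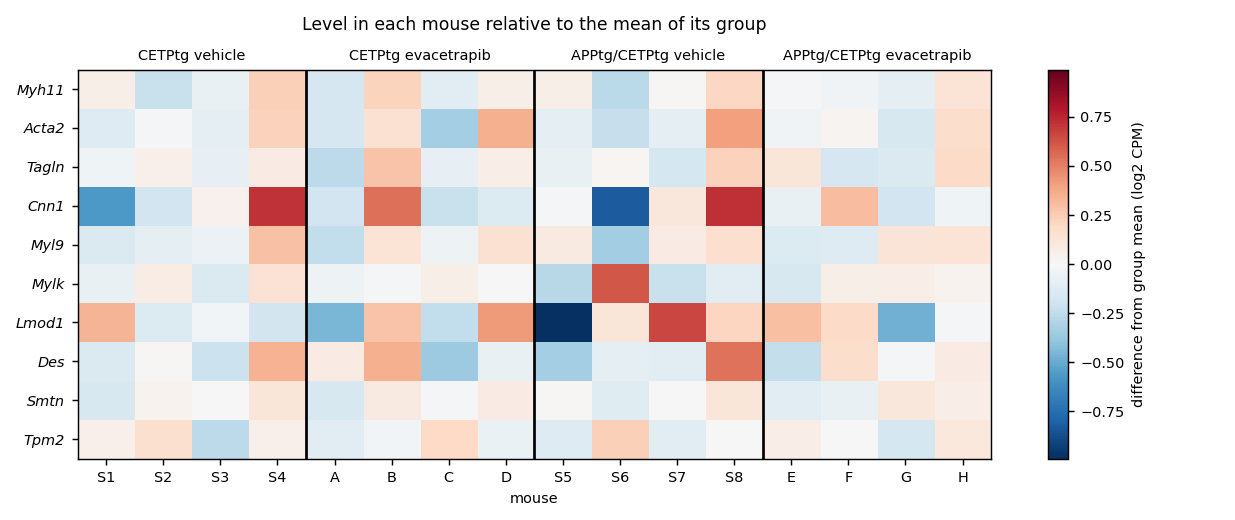
Log2 CPM of each contractile gene (rows) in each mouse (columns) as the difference from the mean of its group, red above and blue below, with the 4 groups divided by black lines. Columns S4 and S8 are red in most rows, while Mylk and Tpm2 follow their own pattern, with S6 at the top of both in its group.

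Outside the 10, the genes whose deviations were most like theirs, by mean r with the members over 16 mice among 14978 genes with a mean of at least 1 CPM, were Mt3 (0.53), Tmco4 (0.53), Abhd17a (0.51), Ndufa7, Nr1h2, Atp5d, Mgat1 and Hcn2 (0.51 each), and Rpl28-ps1 and Zfp444 (0.51 and 0.50). The median over all those genes was 0.00018. Marker lists gave a median of mean r of 0.19 for 11 pericyte genes, 0.13 for 16 endothelial genes, 0.27 for 9 microglial genes and -0.08 for 10 neuronal genes. Choroid plexus, astrocyte and striated muscle lists had 0.17, 0.15 and 0.14. The other smooth muscle lists lay near 0, at 0.006 for other contractile genes, 0.06 for channels and receptors and 0.02 for modulated smooth muscle. None of the 10 most similar genes belongs to these lists. These 10 were picked as the highest of many genes, and each had a larger mean r than Acta2, the highest member, at 0.46. Deviating together was therefore not particular to the contractile genes.

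The rest of the contractile machinery was measured through 25 further genes, of which 24 were tested and Actg2, the enteric smooth muscle actin, had too few reads. Between evacetrapib- and vehicle-treated mice 15 were higher and 9 lower, and 0 passed in edgeR, DESeq2 or limma-voom, with 1 at an unadjusted p under 0.05 in edgeR. Cald1 (log2 fold change 0.20) was that gene, and 7.91% of all genes had such a p. The median log2 fold change was 0.03, beside -0.0015 over all genes. The most abundant were Csrp1 (-0.01), Myl6, the essential light chain (0.04), Rock2, a kinase that sensitises myosin to calcium (0.07), and Tpm1 (-0.03). Most of these 24 genes are also used by neurons and glia.

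Between genotypes, 5 of these 24 genes passed, 2 higher and 3 lower in APPtg/CETPtg mice. Myl6 (log2 difference 0.15, standard error 0.040, adjusted p = 0.0118) and Pdlim7, an actin-associated adaptor (0.20, standard error 0.052, adjusted p = 0.0126), were higher in edgeR's test. Rock1, a kinase related to Rock2 (-0.23, adjusted p = 0.00674), and Ppp1r12a, the targeting subunit of myosin phosphatase (-0.11, adjusted p = 0.0434), were among the lower genes in the same edgeR test. That share of 5 in 24 stands beside 17.7% over all genes.

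Of the factors that drive the contractile program, 0 passed between treatments in any of the 3 tools, and 0 had an unadjusted p under 0.05. Myocd, the myocardin coactivator that is largely restricted to muscle, had down to 1 read per mouse and was not tested. Srf, which binds the CArG box, differed by -0.04 on the log2 scale with evacetrapib (standard error 0.047). Its coactivators Mrtfa and Mrtfb had -0.06 (standard error 0.049) and 0.02 (standard error 0.040). Between genotypes, 0 of these 3 passed in edgeR or limma-voom and 1 in DESeq2 (20.8% of all genes), and all 3 had an unadjusted p under 0.05 in edgeR, as did 30.5% of all genes, with adjusted p of 0.115, 0.0897 and 0.0648 in edgeR's test and log2 differences of 0.11, 0.12 and -0.11. Under vehicle alone, 1 of the 3, Srf, passed in all 3 tools and was higher in APPtg/CETPtg mice. Of all genes, 10.4% passed there in edgeR and 17.0% of those with an adjusted p in DESeq2.

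Ion channels and receptors of smooth muscle gave 14 of 19 genes higher and 5 lower with evacetrapib, and their log2 fold changes had a median of 0.06. In edgeR, DESeq2 and limma-voom 0 of them passed, with 2 at an unadjusted p under 0.05 in edgeR. The 2 were Casq2 (0.34) and Pde5a (0.23), at means of 2.57 and 9.64 CPM, and 7.91% of all genes had such a p. The most abundant were Itpr1, the calcium release channel (0.11), Kcnma1, the pore of the BK potassium channel (0.06), Ryr2 (0.01) and Gucy1b1, a subunit of the nitric oxide receptor (-0.01). Their means ran from 215 to 922 CPM, and genes named by level were not chosen for being particular to muscle. Between genotypes, 1 of the 19 passed, Kcnma1, also a neuronal gene, with a log2 difference of -0.23 (standard error 0.034, adjusted p = 0.000146 in edgeR) and a lower level in the APPtg/CETPtg mice. Under vehicle 2 of the 19 passed in edgeR, Kcnma1 and Cacna1c, both lower in APPtg/CETPtg mice, where 10.4% of all genes passed. Under evacetrapib 1 passed, Kcnma1, also lower, where 2.99% of all genes did.

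Genes of modulated VSMCs, which lose contractile proteins and make matrix, were followed as a contrast. They are not specific to VSMCs in bulk brain, and Mgp is also in the meningeal fibroblast list used below. Their values are therefore not read as a state of VSMCs. Of 12 tested, 7 were higher and 5 lower with evacetrapib, and the median of their log2 fold changes was 0.02. In all 3 tools 0 of them passed, with 2 at an unadjusted p under 0.05 in edgeR. Fn1, fibronectin (0.15), Vcam1 (0.08), Ly6a (0.28) and Mgp (-0.10) were the most abundant. Between genotypes 2 of the 12 passed, a share near the 17.7% of all genes. Fn1 was lower (-0.26, adjusted p = 0.0105) and Ly6a higher (0.29, adjusted p = 0.00992) in APPtg/CETPtg mice in edgeR's test, and the other 10 did not pass.

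Non-muscle relatives of the contractile proteins gave 10 of 13 higher and 3 lower with evacetrapib, with a median of 0.06, 0 passing in all 3 tools and 1 at an unadjusted p under 0.05 in edgeR. The log2 fold changes of Actb, Actg1, Myh10 and Tagln3, the most abundant of them, lay between -0.02 and 0.07. Between genotypes 2 of the 13 passed, also near the 17.7% of all genes. Tagln3, the neuronal transgelin, was higher in APPtg/CETPtg mice (0.24, adjusted p = 0.000949) and Actb was lower (-0.11, adjusted p = 0.0485, both edgeR). The transcripts of the 10 members shared 0 stretches of 100 bases with those of any other gene, these relatives included.

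**Figure D5:**
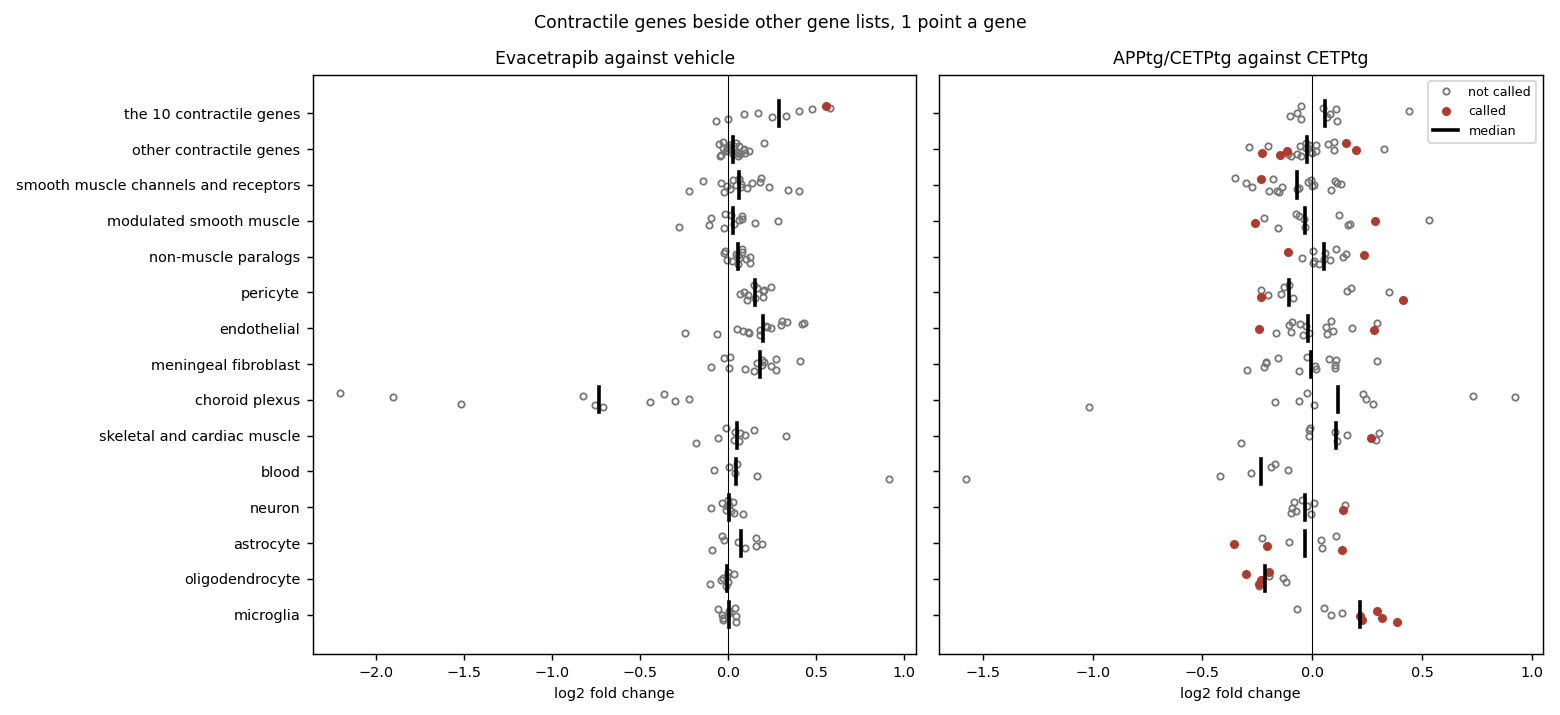
Log2 fold changes of single genes, 1 point a gene, for the contractile genes and other gene lists with at least 5 genes tested, between treatments (left) and between genotypes (right), with filled points passing the thresholds and a black bar at the median of each list. On the left the 10 contractile genes have a median of 0.29 and the choroid plexus genes one of -0.73, and on the right 0 of the 10 contractile genes are filled.

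Most genes of other cells of the vessel wall had positive log2 fold changes between treatments, without passing in edgeR. Over all genes, 7.91% had an unadjusted p under 0.05 in this comparison and 0.315% passed in DESeq2. Of 11 pericyte genes, 11 were higher with evacetrapib (median log2 fold change 0.15, 0 passing in edgeR, 1 in DESeq2, and 5 at an unadjusted p under 0.05), among them Rgs5 (0.24), Vtn (0.20), Pdgfrb (0.14) and Cspg4 (0.07). Their summed level ran from 229 to 257 CPM with vehicle and from 247 to 261 CPM with evacetrapib in CETPtg mice, and from 194 to 244 and 249 to 278 CPM in APPtg/CETPtg mice. Of 16 endothelial genes, 14 were higher (median 0.20, 0 passing in edgeR, 4 in DESeq2, and 11 at an unadjusted p under 0.05), with 425 to 498 against 468 to 534 summed CPM in CETPtg and 426 to 481 against 473 to 531 summed CPM in APPtg/CETPtg mice. Of those 11 endothelial genes at an unadjusted p under 0.05, Mfsd2a was lower with evacetrapib (-0.25). The most abundant endothelial genes were Slc2a1 (-0.06), Flt1 (0.30), Abcb1a (0.18) and Slco1a4 (0.05). Flt1 and other genes of this endothelial list are among those the study reported as differing between treatments in these same mice. The endothelial counts are therefore a description too, and not independent of that report.

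Of 14 meningeal fibroblast genes, 12 were higher (median 0.18, 0 passing in edgeR or DESeq2, and 2 at an unadjusted p under 0.05), with 135 to 167 against 130 to 165 summed CPM in CETPtg and 104 to 147 against 149 to 178 summed CPM in APPtg/CETPtg mice. All 10 choroid plexus genes were lower with evacetrapib (median -0.73, 0 passing in edgeR or DESeq2, and 3 at an unadjusted p under 0.05), led in level by Ttr, and their summed level reached 473 CPM in a vehicle-treated APPtg/CETPtg mouse where the lowest of that group had 19.6 CPM. In CETPtg mice the choroid plexus sum was 17.6 to 178 CPM with vehicle and 17.7 to 130 CPM with evacetrapib, and with evacetrapib in APPtg/CETPtg mice it was 15.9 to 33.3 CPM. The part of these cell types in the difference of the contractile genes was not tested.

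Striated muscle shares several contractile genes with smooth muscle, and 10 of its 16 genes were tested, with log2 fold changes of median 0.05 and 44.8 to 57.4 summed CPM over all mice. Blood genes, which non-perfused tissue retains, had a median of 0.04 and 70.0 to 292 summed CPM. Of 8 pituitary genes 1 was tested, and 1 evacetrapib-treated APPtg/CETPtg mouse had 855 summed CPM of them where the other groups reached at most 20.6 CPM. Neuronal, astrocyte, oligodendrocyte and microglial lists had medians of 0.00, 0.07, -0.01 and 0.00 between treatments. Between genotypes, where the contractile genes did not pass, 4 of 8 oligodendrocyte genes were lower and 5 of 9 microglial genes higher in APPtg/CETPtg mice (edgeR, the thresholds above), beside 17.7% of all genes in either direction. Of 11 pericyte genes 2 passed, near that share, with Notch3 lower and Ndufa4l2 higher.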

How the data were processed

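Poly(A) RNA from bulk brain of 16 mice, 4 in each combination of genotype (CETPtg or APPtg/CETPtg) and treatment (evacetrapib or vehicle), was sequenced by the authors as directional libraries. Per the submitters' processing notes and the study's methods, reads were trimmed with Trimmomatic 0.39, aligned to mm10 with STAR 2.7.8a and counted per gene with HTSeq-count. The strand setting and annotation of the counting are not given in the sources used here. The deposited table holds raw counts of reads per gene, not normalized, and 0 columns were left unmapped.

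Counts were normalized by TMM in edgeR 4.0.16 (R 4.3.3). Genes that reached 10 counts in 4 or more mice entered the quasi-likelihood test, two-sided, with Benjamini-Hochberg adjustment over 18609 genes, and passed with an adjusted p up to 0.05 and a difference of 5% or more. Genotypes were compared with a treatment term, treatments with a genotype term, and contrasts within groups in a model of the 4 group means. Log2 CPM had a prior count of 2. Steps were tested on simulated counts. Total counts per mouse ran from 21391335 to 55453789, and p-values judge a difference against the spread between these mice.

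The members and the gene lists were chosen with earlier results of these data known. The text names the 10 members, the transcriptional regulators, up to 4 of the most abundant genes of each list, genes of the smooth muscle lists that passed in a tested comparison, and the 10 genes whose deviations were most like those of the members. Notch3, Ndufa4l2, Casq2, Pde5a, Cald1 and Mfsd2a were named after their values were seen. A gene of the other contractile list that passed between genotypes is not reported here. Lists covered other contractile genes, regulators, channels and receptors, modulated smooth muscle, non-muscle relatives and markers of other cells.

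Gene coordinates are those of GENCODE M21 on GRCm38, where 55141 of the 55487 identifiers matched, and promoters those of RefSeq. Alternatives were DESeq2 1.42.0 (size factors, Wald test), limma-voom (limma 3.58.1), other filters, terms for plate row or column, models with 1 factor, fits to the 8 mice compared and each mouse left out in turn. A replicate block and leaving out S4 and S8 together were added after seeing the data.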

Additional observations from a re-analysis of the deposited data

Results flagged for a closer look

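In each group of 4 mice, the highest and the lowest value of each contractile gene were compared with the rest, and a value was listed when its gap to the nearest mouse took up a share of the group's whole range above Dixon's critical value for 4 values at the 95% level. Of 40 groups tested, 4 had such a value, where chance gives about 1 in 20. Cnn1 was at 0.6296 CPM in evacetrapib-treated CETPtg replicate B, with the other 3 mice at 0.345 to 0.369 CPM, on 21 reads. Myl9 was at 15.05 CPM in vehicle-treated CETPtg replicate S4, with the other 3 at 11.1 to 11.8 CPM.

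Mylk gave a listed value in both groups of APPtg/CETPtg mice. Under vehicle, replicate S6 was at 29.34 CPM with the other 3 at 15.9 to 17.7 CPM. Under evacetrapib, replicate E was at 18.12 CPM with the other 3 at 20.8 to 21.2 CPM. The causes of these values were not tested.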

How the results depend on the processing

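Between genotypes, under vehicle, under evacetrapib and in the interaction, 0 of the 10 contractile genes passed in every alternative run. Over all mice, the number that passed between evacetrapib and vehicle, given as a description, was 1. It became 3 in the Wald test of DESeq2, 3 without a filter on low counts and 2 with the replicate block. It was 0 with a term for the plate column, where Myh11 had a log2 fold change of 0.55 and only C, D, G and H of the evacetrapib-treated mice inform the estimate. Without S4 and S8 together, which raises the difference by construction, it was 3. It lay between 0 and 3 with each mouse left out in turn, and Myh11 passed in 7 of these 16 fits. Within CETPtg mice the number went from 0 to 1 without a filter. Within APPtg/CETPtg mice it went from 0 to 2 in DESeq2's Wald test, to 1 without a filter and to 1 without S4 and S8, and lay between 0 and 1 with each mouse left out. For the alternative edgeR fits the share of all genes that passed is not given, so whether they pass more genes in general cannot be told. The cause was not tested.

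Several genotype differences close to 0 turned their sign. Under evacetrapib, Myh11 had -0.0044 with DESeq2's size factors, -0.0050 in its Wald test, -0.0088 without a filter and -0.0016 with the replicate block. Acta2 had 0.028 in limma-voom and 0.0097 with the replicate block, and Des had -0.0033 without a filter. Without S4 and S8, the genotype difference under vehicle was -0.025 for Tagln and -0.0089 for Des, and the interaction was -0.0019 for Myl9 and 0.016 for Des. With each mouse left out, the sign also turned for values that ranged over all mice from -0.032 to 0.109 (Acta2), -0.053 to 0.131 (Des), -0.192 to 0.0088 (Lmod1) and -0.037 to 0.115 (Mylk).
Under vehicle these ranges were -0.069 to 0.184 (Acta2), -0.134 to 0.251 (Des), -0.151 to 0.0089 (Myl9), -0.116 to 0.212 (Mylk) and -0.051 to 0.096 (Tagln). Under evacetrapib they were -0.106 to 0.120 (Acta2), -0.103 to 0.130 (Des), -0.057 to 0.076 (Myh11) and -0.018 to 0.093 (Tpm2). In the interaction they were -0.216 to 0.065 (Acta2), -0.248 to 0.141 (Des), -0.064 to 0.101 (Myl9) and -0.181 to 0.147 (Mylk). Of the evacetrapib differences, given as a description, the sign also turned for Cnn1 (-0.030 to 0.604) and Mylk (-0.042 to 0.282) within APPtg/CETPtg mice, Lmod1 (-0.084 to 0.228) and Tpm2 (-0.061 to 0.079) within CETPtg mice, and Smtn over all mice (-0.027 to 0.033).

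The header of the table of counts numbers the mice of each group, and the deviations of same-numbered mice over all genes correlated between -0.20 and 0.17. Such values cannot decide whether same-numbered mice shared a litter, day or batch, which the labels do not give. In the block for these numbers 2 of the 10 genes passed between treatments. Cnn1 and Lmod1 are limited by their depth, with as few as 4 and 8 reads in a mouse.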
